A study of Mus musculus with 2 samples.

Results

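The genes described here are the glutathione transferases and a set of antioxidant genes that includes many targets of the transcription factor NRF2, measured in mouse alveolar macrophages labelled wild type or PIKfyve KO. PIKfyve phosphorylates the endosomal lipid phosphatidylinositol 3-phosphate, and its product is needed for normal traffic through endosomes and lysosomes. The choice uses gene symbols and no measured value, though it was made with earlier results of these data known. The genes are all transferase genes of the alpha, kappa, mu, omega, pi and theta classes and 21 named genes of glutathione synthesis, peroxide removal and NRF2 control, wherever an array row (a probe set) carried 1 gene symbol. Of the 21 named genes, 18 had such a row, and Prdx1, Prdx5 and Prdx6 had none. With the 18 transferase genes that makes 36 of the 22180 genes that could be named on the array.

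Alveolar macrophages, the resident macrophages of the airspaces, came from lungs of adult C57BL6 littermates kept free of specific pathogens. The lungs were digested with collagenase, and cells negative for the dye DAPI and positive for Siglec-F and CD11c were sorted. The wild type sample is described as PIKfyve f_f and the knockout sample as PIKfyve f_f_lysm_cre. Both therefore carried floxed alleles, and the knockout also carried LysM-Cre, a recombinase driven from the lysozyme 2 locus, which is active in neutrophils and other myeloid cells as well as in macrophages. RNA of each was amplified from 10 ng and hybridised to 1 Affymetrix array, and the number of mice behind each array is not stated in the labels.

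With 1 array per genotype there was no replicate error and no difference was tested. Every value below is an RMA expression value on the log2 scale, and every difference is the knockout array minus the wild type array on that scale. Levels of different genes come from different probes and are not compared with each other. A background level was taken for each array from 1428 olfactory, vomeronasal and taste receptor genes, as the value that 95% of them lie below. It was 5.37 for the wild type array and 5.31 for the knockout array. A gene was counted as higher or lower when the arrays differed by at least 1.5-fold, measured from the background level where 1 value lay below it. Counts and medians were taken over genes with a mean over the arrays of at least 5.13, the middle value of all rows. That left 12516 genes, 30 of the 36 among them.

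Pikfyve itself was not lower in the knockout array. Its row read 5.68 in wild type and 5.95 in the knockout, a difference of 0.27, and the sources used here do not say whether its probes fall in the floxed part of the gene. The row therefore does not check the labels, and "wild type array" and "knockout array" mean below the array so labelled, here and in every direction given. All 26 measured marker genes of alveolar macrophages lay above background on both arrays. The arrays correlated with Pearson's r = 0.978 across the genes analysed, taken over genes within 1 pair of arrays, and genes are not replicates.

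Glutathione is a tripeptide whose cysteine thiol takes up peroxides and reactive electrophiles. Glutathione transferases join it to electrophiles such as lipid peroxidation products, glutathione peroxidases use it to reduce peroxides, and glutathione reductase regenerates it. NRF2, encoded by Nfe2l2, is held in the cytoplasm and marked for degradation by KEAP1; when KEAP1 is modified by electrophiles, NRF2 enters the nucleus and binds antioxidant response elements with small MAF proteins. Alveolar macrophages meet inhaled oxidants and make superoxide themselves, and glutathione is abundant in the fluid that lines the alveoli.

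A few transferase genes and the cystine transporter gene Slc7a11 were higher in the knockout array, while the measured genes that make and recycle glutathione and thioredoxin or remove peroxide did not differ by 1.5-fold in either direction. Of the 30 genes that reached the filter level, 5 were at least 1.5-fold higher and 0 were at least 1.5-fold lower. These were Gsta4, Slc7a11, Gsta3, Gstk1 and Gstm1. Across all genes analysed, 3.84% were higher and 2.16% were lower by the same rule, against 16.7% and 0% of these 30. At 2-fold, 3 of the 30 were higher (Gsta4, Slc7a11 and Gstk1) and 0 were lower, where 0.807% and 0.272% of all genes analysed passed. At that fold Gsta4 alone of the 3 held under the other scalings and the other choice of rows. Slc7a11 differed by 0.81 in its row of highest mean, and Gstk1 by 0.96 with quantile normalisation and 0.92 with loess centring, all under 2-fold. With an offset of 32 on the linear scale, which shrinks differences of low values, none of the 3 reached 2-fold. Without the filter the count was 5 of 36, or 13.9%, against 2.16% of all 22180 genes. A stricter cut, at the 75th percentile, left 23 genes of the set. Of these 23, 2 were higher (Gstk1 and Gstm1), against 5.89% of the 6297 genes that passed this cut, so the contrast was much smaller there. Gsta3 reached the filter level only through its knockout value. The median difference of the 30 genes was 0.05, and that of all genes analysed was 0.00, and 25 of the 30 were less than 1.5-fold apart. Of the 30, 17 differed by less than the local spread, a robust standard deviation of the differences of genes of similar level, as did 65.4% of all genes analysed. The 13 transferase genes that reached the filter level had a median difference of 0.27, with 4 higher. The other 17 genes had a median of 0.04, with 1 higher.

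**Figure D1:**
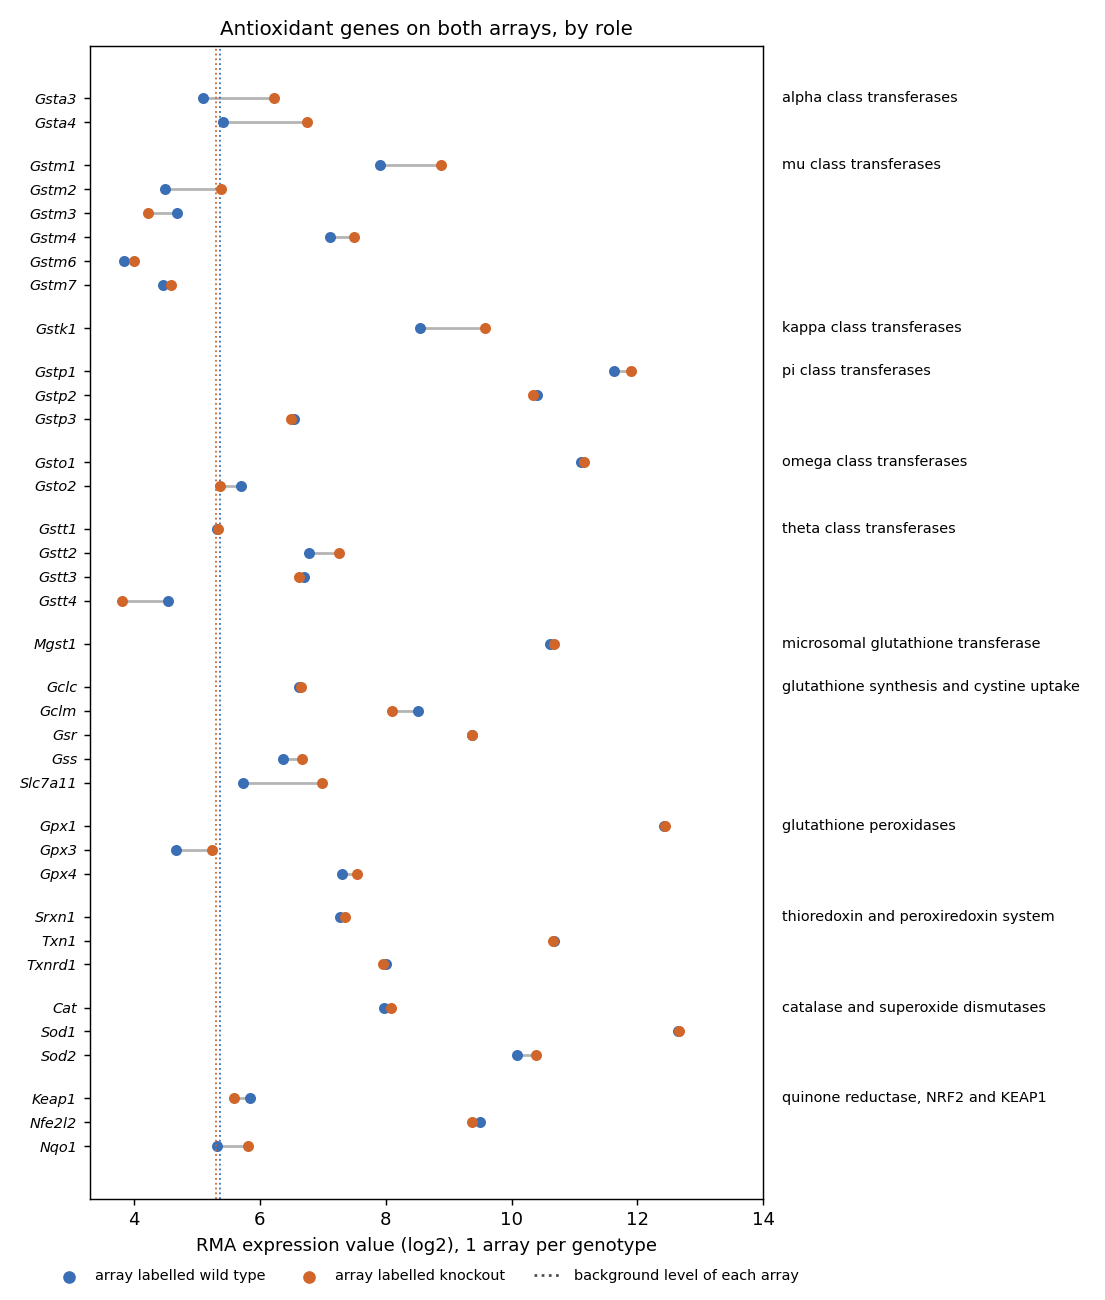
RMA expression value (log2, horizontal axis) of each of the 36 genes on the wild type array (blue) and the knockout array (orange), 1 array per genotype, with genes grouped by role and dotted lines at the background level of each array. The widest gaps above background are those of Gsta4, Slc7a11, Gsta3, Gstk1 and Gstm1, while Gpx1, Sod1, Gsr and Txn1 have nearly coincident points.

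The 2 alpha class genes with a row of their own were higher in the knockout array, and rows shared by other alpha class genes were not. Those 3 rows list several symbols each, so no gene is named from them. They read 7.35 and 6.63, 5.27 and 4.90, and 3.84 and 4.04, wild type first, and the first of them, above background on both arrays, differed by -0.73. Gsta4, whose enzyme is known for conjugating hydroxynonenal, a product of lipid peroxidation, read 5.42 in wild type and 6.75 in the knockout. The wild type value lay just above background, and the difference of 1.33 is 2.52-fold. Of the 12516 genes analysed, 52 differed by at least as much in that direction, Gsta4 included. Gsta3, the alpha class enzyme known in mice for detoxifying aflatoxin epoxide, read 5.10 and 6.22. Its wild type value lay within background, and measured from the background level it was 1.80-fold higher in the knockout array. The difference as read was 1.12.

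The RefSeq promoter table (GRCm38.p6) holds 300 bases around each start site, 250 before and 50 after it. It has 32 of the 36 genes, and Gsta4, Gclc, Gsr and Gstt2 are not among them. The core of the antioxidant response element, the site that NRF2 binds with small MAF proteins, was searched on both strands as TGACNNNGC. It was found in 8 of the 32 genes (25%), in at least 1 of their promoter windows, against 14% of all genes in the table. Some genes have several windows, which gives them more places for a match. Counted by window, the contrast was smaller, with 8 of 45 windows of these genes (17.8%) against 12.4% of all 32851. The set was also chosen to include NRF2 targets. The 8 genes are Gclm, Gsta3, Gstm7, Mgst1, Nfe2l2, Sod1, Srxn1 and Txnrd1. Of the 5 genes that were higher, Gsta3 is the one with a match. Its 160 bases before the start site, chr1:21240425-21240584 on the plus strand, are shown because it combines a match with a higher value; capitals mark the match.
Gsta3: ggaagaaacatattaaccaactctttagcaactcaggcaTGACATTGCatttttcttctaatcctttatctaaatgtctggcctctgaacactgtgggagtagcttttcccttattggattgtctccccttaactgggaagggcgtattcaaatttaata
A match is a description of letters in this window, and factor binding was not measured.

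The mu class genes lie side by side on chromosome 3 in the order Gstm7, Gstm6, Gstm3, Gstm2, Gstm1 and Gstm4, and 2 of them, Gstm1 and Gstm4, lay above background on both arrays. Gstm1, the mu class enzyme best known for conjugating epoxides and other xenobiotic electrophiles, read 7.92 in wild type and 8.87 in the knockout. The difference of 0.96 is 1.94-fold, and 0.999% of the genes analysed were at least as far in that direction. Its neighbour Gstm4 read 7.12 and 7.50, a difference of 0.38 that did not reach 1.5-fold. Gstm2, on the other side of Gstm1, read 4.49 and 5.38; the wild type value lay within background and the knockout value barely above it, so no fold could be given from that level. One further row lists a mu class gene together with another transcript; it read 8.31 and 9.89 and is given to neither. Gstm3 read 4.69 and 4.22, Gstm6 3.85 and 4.0, and Gstm7 4.47 and 4.59, all within background on both arrays, so whether the cluster moved together could not be seen. Mu class genes are similar in sequence, and the sources used here do not give the probes, so shared signal between them was not tested.

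Gstk1, the single kappa class gene, encodes a transferase of mitochondria and peroxisomes. It read 8.55 in wild type and 9.58 in the knockout, both well above background. The difference of 1.03 is 2.04-fold and was larger than the local spread of 0.31. Of the genes analysed, 109 were at least as far in that direction, Gstk1 included.

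The pi, omega and theta classes held no gene that was 1.5-fold apart. Gstp1, the main pi class enzyme of lung and many other tissues, read 11.63 and 11.89, a difference of 0.27. Gstp2 read 10.41 and 10.34, and Gstp3 read 6.55 and 6.49. The Gstp genes are neighbours on chromosome 19 and near copies of each other, so how their signal divides among them is uncertain. Gsto1, an omega class enzyme that works as a thioltransferase and dehydroascorbate reductase, read 11.11 and 11.15. Its neighbour Gsto2 read 5.70 and 5.37, close to background. Of the theta class, Gstt2 read 6.79 and 7.26, a difference of 0.47 or 1.39-fold, and Gstt3 read 6.71 and 6.62. Gstt1 read 5.31 and 5.34, at background level, and Gstt4 read 4.54 and 3.80, within background on both arrays. Mgst1, the membrane-bound transferase of the endoplasmic reticulum and mitochondria, belongs to a separate family and read 10.61 and 10.68.

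**Figure D2:**
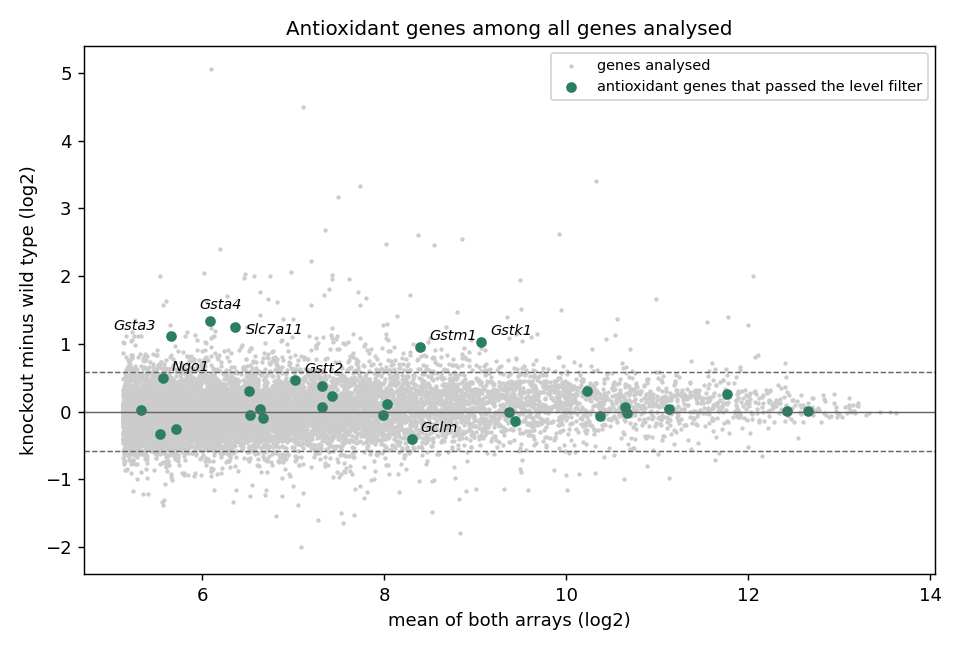
Difference between the arrays (knockout minus wild type, log2, vertical axis) against the mean of both arrays (log2, horizontal axis) for the 12516 genes analysed (grey) and the 30 antioxidant genes that reached the filter level (green), with dashed lines at 1.5-fold. Gsta4, Slc7a11, Gsta3, Gstk1 and Gstm1 lie above the upper line, none lies below the lower line, and Gclm is the lowest at -0.41.

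Among the genes of glutathione supply, Slc7a11 was higher in the knockout array and the biosynthetic enzymes were not. Slc7a11 encodes the light chain of the cystine-glutamate exchanger, which brings in the cystine that limits glutathione synthesis. Averaged over its 2 rows it read 5.74 in wild type and 6.99 in the knockout, a difference of 1.25 or 2.38-fold. The rows differed in size. The first row read 5.37 and 7.06, from background level upwards, and the second read 6.10 and 6.91, which is 1.75-fold. Slc3a2, which encodes the heavy chain that carries this transporter to the membrane, read 10.48 and 10.49. Gclc, the catalytic subunit of glutamate-cysteine ligase, the rate-limiting enzyme of glutathione synthesis, read 6.62 and 6.66. Gclm, the modifier subunit of the same ligase and a standard NRF2 target, read 8.51 and 8.10 and so was the gene of the set with the most negative difference above background, -0.41 or 1.33-fold. That did not reach 1.5-fold, and 7.70% of the genes analysed were at least as far in that direction. Gss, glutathione synthetase, read 6.37 and 6.67, and Gsr, glutathione reductase, read 9.37 on both arrays.

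The promoters of Slc7a11 and Gclm are shown as examples of different elements, and these genes were picked with their values known. Slc7a11 was past 1.5-fold and Gclm was not. Whether either element bears on the difference of its gene was not tested. The CARE letters TGATGNAA, at which ATF4, the factor of amino acid shortage, binds with C/EBP proteins, were searched on both strands. They occur in the window of Slc7a11 alone among the 32 genes, where 4.51% of all genes in the table have them, and they occur there as 2 matches facing each other. The AP-1 letters TGACTCA, which can overlap the antioxidant response element, were found in Gstp1, Gstp2 and Srxn1, and in 5.95% of all genes. Capitals mark the CARE matches in Slc7a11 (chr3:50443614-50443773, minus strand) and the antioxidant response element core in Gclm (chr3:122245397-122245556, plus strand), each over the 160 bases before the start site.
Slc7a11: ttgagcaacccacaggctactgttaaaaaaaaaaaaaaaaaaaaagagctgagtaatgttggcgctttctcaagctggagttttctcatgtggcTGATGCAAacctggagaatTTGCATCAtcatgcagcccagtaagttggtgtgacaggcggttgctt
Gclm: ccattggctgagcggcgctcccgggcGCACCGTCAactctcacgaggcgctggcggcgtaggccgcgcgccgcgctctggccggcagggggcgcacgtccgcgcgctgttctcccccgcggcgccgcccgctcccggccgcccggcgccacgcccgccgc
The window of Slc7a11 holds no TGACNNNGC, which says nothing of sites outside it.

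None of the 6 measured peroxidase, catalase and superoxide dismutase genes was 1.5-fold apart. Gpx1, the abundant cytosolic glutathione peroxidase, read 12.42 and 12.44. Gpx4, which reduces lipid hydroperoxides in membranes and guards against ferroptosis, read 7.31 and 7.54, a difference of 0.23. Gpx3, the secreted peroxidase, read 4.67 and 5.25, within background on both arrays. Cat, catalase of peroxisomes, read 7.97 and 8.09. The cytosolic superoxide dismutase gene Sod1 read 12.65 and 12.66, and the mitochondrial Sod2 read 10.08 and 10.38, a difference of 0.303 where the local spread was 0.296. With loess centring, which removes the shift with level, the difference of Sod2 was 0.18.

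The thioredoxin arm, which reduces protein disulfides and peroxiredoxins with NADPH, held 3 measured genes, each with a difference smaller than its local spread. Txn1, thioredoxin, read 10.67 and 10.65, and Txnrd1, its reductase, read 8.01 and 7.96. Srxn1, sulfiredoxin, which repairs overoxidised peroxiredoxins, read 7.28 and 7.35. Txnrd1 and Srxn1 are standard NRF2 targets, and 1 of the Txnrd1 promoters in the table holds the response element core. It is shown as an example of a match in a gene that differed by only -0.05, against a local spread of 0.32, over 160 bases before that start site, chr10:82859046-82859205 on the plus strand, with the match in capitals.
Txnrd1: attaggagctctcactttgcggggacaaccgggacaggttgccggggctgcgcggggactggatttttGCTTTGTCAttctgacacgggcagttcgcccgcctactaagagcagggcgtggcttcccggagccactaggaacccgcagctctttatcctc
The AP-1 letters of Srxn1 occur in its window at 2 places, and its response element match lies after the start site.

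The regulator genes Nfe2l2 and Keap1 read slightly lower, each by less than its local spread (0.30 and 0.27). Nfe2l2 read 9.50 in wild type and 9.36 in the knockout, a difference of -0.14. Keap1, averaged over 2 rows, read 5.84 and 5.59, and its rows differed by -0.18 and -0.32. Nqo1, the quinone reductase that is often used as an indicator of NRF2 activity, read 5.32 and 5.81. Its wild type value lay at background, and measured from there it was 1.36-fold higher, short of 1.5-fold. NRF2 is controlled mainly through the stability of its protein, which these arrays do not measure.

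Other lists of the same pathways held a few higher genes among many near 0. Across all genes analysed, 3.84% were higher and 2.16% were lower by the same rule. Of 33 further NRF2 targets listed, 27 were measured and 20 reached the filter level; 3 were higher, 0 were lower and their median difference was -0.01. The 3 were Pir, which encodes the iron-binding protein pirin (7.29 and 8.29), Ephx1, the microsomal epoxide hydrolase (7.22 and 8.03, 1.76-fold), and Aldh1a1, a retinaldehyde dehydrogenase (6.50 and 7.15, 1.56-fold). Cbr1, a carbonyl reductase, read 9.60 and 10.05. Hmox1, the heme oxygenase gene that responds to NRF2 and to heme, read 11.67 and 11.70, and Sqstm1, the autophagy receptor gene that is both an NRF2 target and a KEAP1 partner, read 9.88 and 9.71.

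Of 38 further glutathione enzymes and carriers, 28 reached the filter level, with 3 higher, 0 lower and a median of 0.02. The shares of all genes analysed were 3.84% higher and 2.16% lower. Hpgds, the prostaglandin D synthase of blood cells and the sigma class glutathione transferase, read 6.64 and 8.60, a difference of 1.96 or 3.88-fold. That difference was larger than that of any of the 36 genes. Mgst2, a membrane transferase related to leukotriene C synthase, read 8.10 and 9.01, a 1.88-fold difference. Chac2, which degrades glutathione, read 5.34 and 6.0 and was 1.54-fold higher from background. Ggct, of the same list, read 8.52 and 8.97, which is less than 1.5-fold apart.

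Of 23 further thioredoxin, peroxiredoxin and superoxide enzymes, 18 reached the filter level, with 1 higher, 0 lower and a median of 0.16. A count of 1 of 18 is near the 3.84% of all genes analysed that were higher. The 1 was Msrb2, a mitochondrial methionine sulfoxide reductase (7.42 and 8.02, 1.52-fold). Prdx4, the peroxiredoxin of the endoplasmic reticulum, read 8.98 and 9.56, just under 1.5-fold. Msra, another methionine sulfoxide reductase, read 6.85 and 7.27. Sod3, the extracellular dismutase, read 5.16 and 5.55 and lay within background on the wild type array.

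Partners and regulators of NRF2 had a median of -0.17 over 15 genes, with 0 of them 1.5-fold apart and 12 reading lower. Of all 12516 genes analysed, 6202 read lower. Cul3, the ubiquitin ligase scaffold that works with KEAP1, read 8.96 and 8.52, and the coactivator gene Ep300 read 6.59 and 6.20. Dpp3, whose product binds KEAP1, read 7.32 and 6.93, and Nfe2l3, an NRF2 relative, read 5.51 and 5.06, within background on the knockout array. Superoxide producers had a median of 0.00 over 7 genes, with 0 of them 1.5-fold apart. The NADPH oxidase subunit genes Cybb, Cyba and Ncf1 differed by -0.20, 0.00 and 0.24. Rac2, the GTPase of the same oxidase, read 11.63 and 11.42, and Xdh, xanthine dehydrogenase, read 5.51 and 5.71.

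**Figure D3:**
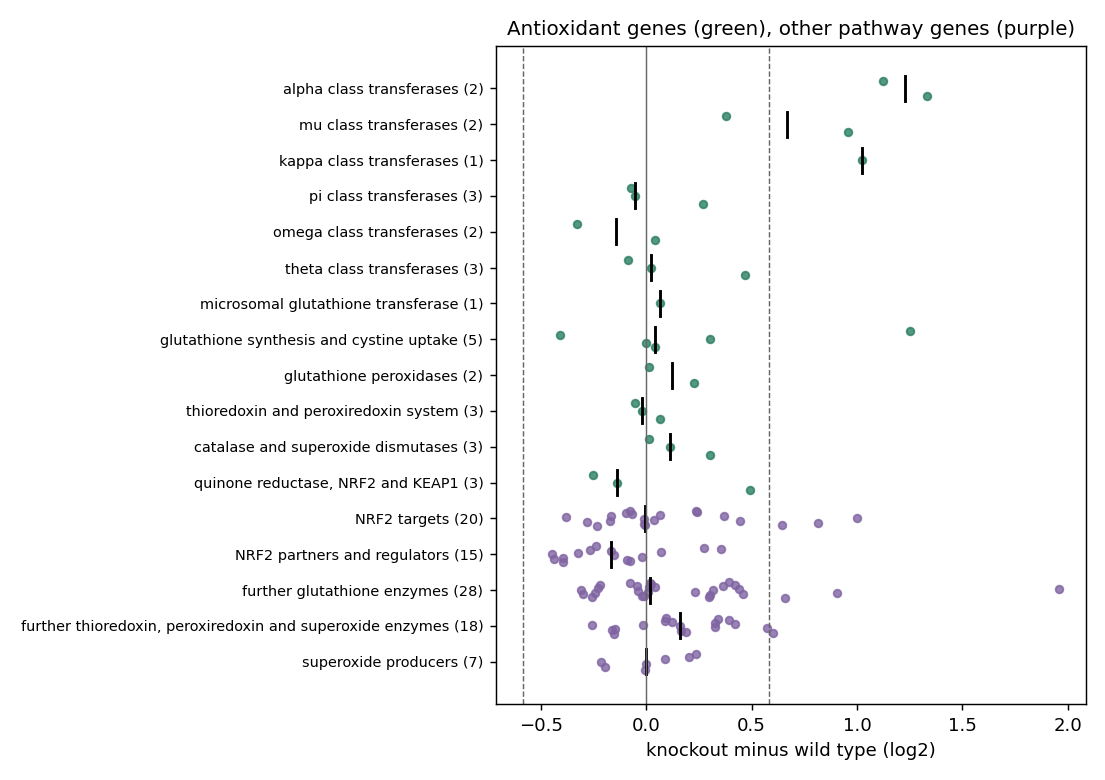
Difference between the arrays (knockout minus wild type, log2, horizontal axis) for the antioxidant genes by role (green) and for lists of other pathway genes (purple), each point 1 gene that reached the filter level, with the number of genes in brackets, a black bar at the median and dashed lines at 1.5-fold. Points beyond the upper line lie in the alpha, mu and kappa classes, at Slc7a11 and, among the other lists, at Hpgds, Pir, Mgst2, Ephx1, Chac2, Aldh1a1 and Msrb2.

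Transferase genes of the alpha and mu classes are also expressed in airway epithelium, and several markers of that tissue were higher too. For comparison, 3.84% of all genes analysed were higher and 2.16% were lower by the same rule. Of 21 airway secretory and club cell markers, 19 were measured and 14 reached the filter level; 7 were higher, 1 was lower and the median difference was 0.45. Summed over the 19, their log2 values came to 124.0 in wild type and 129.5 in the knockout. Scgb1a1, the defining secretoglobin of club cells, read 12.26 and 12.39, Cyp2f2, the club cell cytochrome, read 5.57 and 6.23, and Bpifa1 read 7.32 and 9.78. Epcam, the epithelial adhesion molecule, went the other way, at 8.09 and 6.09. Muc5ac, Aldh3a1, Gabrp, Cyp2b10 and Sftpd lay within background on both arrays. The cells were sorted for Siglec-F and CD11c, and how many epithelial cells remained was not measured here. Of 11 alveolar type 2 markers that reached the filter level, 4 were higher and 1 lower, with sums over 15 measured genes of 91.5 and 93.6. Sftpc, a surfactant gene of these cells, was among the higher, at 8.36 and 9.14. The lower gene was Napsa, at 9.91 and 9.07, which is 1.80-fold. Sftpb and Lamp3 were among 6 genes within background on both arrays. The part of epithelial cells in the transferase differences was not tested.

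Markers of blood and lung macrophage populations also moved. The counts of each list stand beside 3.84% higher and 2.16% lower across all genes analysed. Of 16 neutrophil genes, all above background on at least 1 array, 6 were higher and 1 lower, and their log2 values summed to 124.5 and 129.4. Of 14 interstitial macrophage genes that reached the filter level, 5 were higher and 0 lower, with sums over 15 measured genes of 100.3 and 105.6 and Cd163 within background on both arrays. Of 7 monocyte genes that reached it, 0 were higher and 5 lower, with sums over 10 measured genes of 67.3 and 61.7. T and NK cell markers had 2 higher and 0 lower of 12, red cell and platelet markers 2 and 0 of 5, and eosinophil, mast cell and basophil markers 1 and 1 of 4. The higher gene of the last list was Ear6, at 8.60 and 11.23, and the lower was Hdc, at 6.13 and 5.48. Of the 16 measured genes of that list, 11 lay within background on both arrays. Alveolar macrophage markers had 2 higher and 4 lower of 26, sums of 281.1 and 279.3 and a median of -0.01; Siglecf, which encodes a marker used in the sort, read 9.27 and 8.54 and was 1.66-fold lower. The part of these populations in the differences described above was not tested, and in sorted bulk RNA fewer cells of a type and less RNA per cell cannot be told apart.

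**Figure D4:**
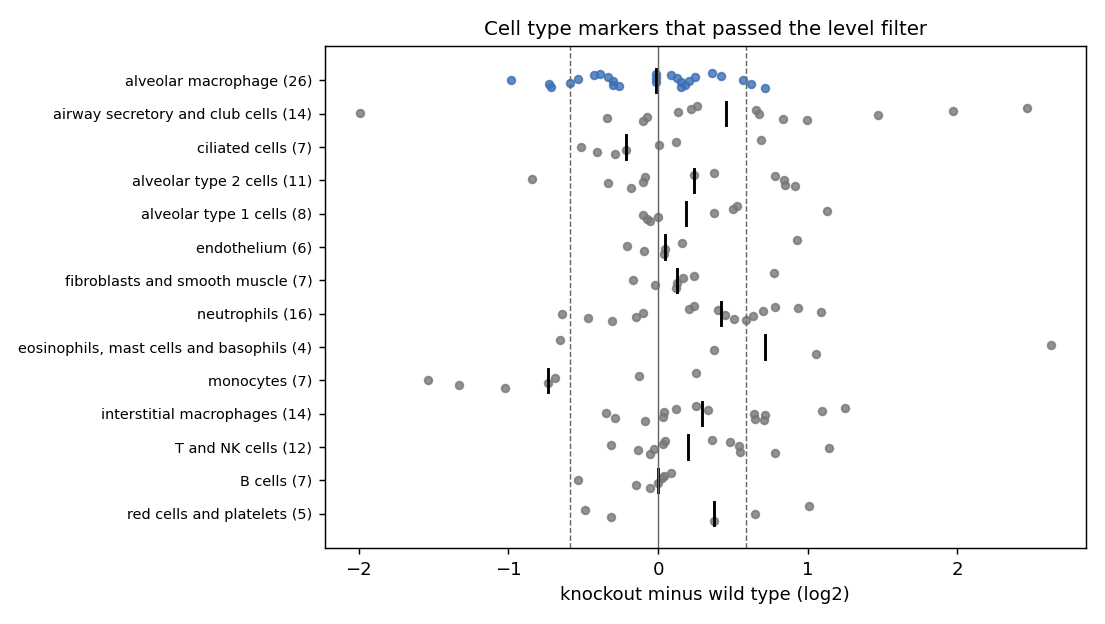
Difference between the arrays (knockout minus wild type, log2, horizontal axis) for marker genes of alveolar macrophages (blue) and of other cell types (grey), each point 1 gene that reached the filter level, with the number of genes in brackets, a black bar at the median and dashed lines at 1.5-fold. Airway secretory markers spread from -1.99 (Epcam) to 2.47 (Bpifa1), and monocyte markers lie mostly below 0.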

How the data were processed

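Sorted alveolar macrophages of 2 genotypes were measured with 1 Affymetrix array each. The authors deposited log2 values made with RMA, which corrects background, normalises arrays to one distribution and summarises probes, per the submitters' processing notes; the sources used here do not give its version, the annotation or the build. RMA and array signals compress large differences, and the number of arrays limits the precision. The log base follows from RMA and from the range of values (0.77 to 13.86).

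Of 41345 rows, 23521 carry 1 gene symbol in the platform annotation, 1814 several and 16010 none; rows of one gene were averaged. All 36 symbols matched a RefSeq gene table. Differences, folds and medians were computed with Python 3.11.15, numpy 2.4.6, pandas 2.3.3 and statsmodels 0.14.6. The counting code was run on simulated data with a smaller spread than these arrays. That run checks the code and says nothing of false calls here. The local spread is a scaled median absolute deviation in 20 bins of level (0.20 to 0.33). Genes were named by rule: all 36, Pikfyve, the 4 genes with the largest absolute difference in each list of other pathway genes, and Hmox1, Sqstm1, Cybb, Cyba and Ncf1. Slc3a2 and the marker genes were chosen after their values were seen. The genes and lists were chosen with earlier results of these data known. The alternatives were other filters, scalings, an offset, another choice of rows, a fold of 2 and values as read below background.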

Additional observations from a re-analysis of the deposited data

How the results depend on the processing

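No paired analysis was possible because each genotype has 1 array. Of 10 alternatives, 7 kept the same 5 genes higher; the filter at the 75th percentile kept 2 of them (Gstk1 and Gstm1, as it leaves Gsta3, Gsta4 and Slc7a11 untested), a fold of 2 kept 3 and an offset of 32 kept 4, without Gsta3. None made a gene of the set 1.5-fold lower. The 75th percentile cut left 23 genes of the set, with a median difference of 0.04, where that of all 6297 genes passing it was 0.05. The 2 higher genes of these 23 stand beside 5.89% of those 6297. The contrast of 16.7% with 3.84% at the main filter was thus much smaller among genes of higher level. Across all genes, the counts higher and lower were 283 and 113 with the offset and 101 and 34 at a fold of 2, and a filter at the 75th percentile left 175 lower.

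The median over transferases was 0.13 with no filter and 0.15 with loess centring. With no filter, the medians were 0.23 for glutathione peroxidases and 0.26 for the mu class. The theta median was 0.19 with either stricter filter (background level or 75th percentile), and the omega median turned to 0.044 with the latter, which leaves Gsto1. Loess centring gave 0.92 for Gstk1 and turned Mgst1 to -0.055, and the offset gave 0.79 for the alpha class. The median of the 17 other genes, 0.04, was -0.01 with quantile normalisation and -0.05 with loess centring, so it has no settled sign. With the row of highest mean, Slc7a11 differed by 0.81. Of 454 values of single genes, 8 moved by more than the local spread (that of the lowest bin for genes under the filter level) and none of the higher genes changed sign. For genes near background, Gsta3 and Gsta4 among them, the fold depends on the level taken as background.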

Other observations

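Of the rows that list several symbols, 8 include one that the choice of genes would have taken, 5 of them a transferase. They entered no count and no gene is named from them, since their signal cannot be given to one gene. Their differences ran from -0.73 to 1.58, with 1 row higher and 1 row lower by at least 1.5-fold as read, the first listing a mu class and the second alpha class genes. The 1.58 difference, from 8.31 on the wild type array to 9.89 on the knockout array, is larger than that of any of the 36 genes with a row of their own.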
